A study of Macaca mulatta with 18 samples.

Results

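Domain boundaries that both tissues shared and that held a CTCF peak were described in fetal brain of rhesus macaque (Macaca mulatta, wild type) at embryonic day 84. A member was an autosomal 40 kb bin of the GZ boundary list that met a pair of conditions. The midpoint of a CP boundary bin lay within 40 kb of its own midpoint, and the summit of a GZ CTCF peak lay within 20 kb of its midpoint, so inside the bin. Of 2704 autosomal GZ boundaries, 1199 were members (44.3%, 95% Wilson interval 42.5% to 46.2%). Measured from the edges of the bin instead of its midpoint, the same distances gave 1767 members. A further 1002 GZ boundaries had a CP partner but no GZ CTCF summit in the bin, and 503 had no CP partner. The 2 tissues carry the names GZ and CP in the labels, which do not spell them out. Hi-C had 3 libraries of GZ and 3 of CP but 1 boundary list and 1 loop list for each, taken here as pooled; RNA-seq had 3 libraries of each, and CTCF ChIP-seq and DNase-seq 1 of each. Libraries of both tissues carry the names RM01, RM02 and RM03, and whether these are different animals is not stated.

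Hi-C records how often stretches of the genome touch each other in the nucleus. A domain is a stretch that contacts itself more than its surroundings, and a boundary is the place where contacts from one side to the other are depleted. In mammals the cohesin ring is thought to extrude a chromatin loop until it meets CTCF, a zinc finger protein that binds DNA in an oriented way, so that CTCF sites tend to lie at the feet of loops and at domain edges. DNase-seq marks open chromatin, which includes most sites where CTCF is bound.

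The RNA libraries were checked for marker genes of 5 cell types, with levels on the log2 FPKM scale. The progenitor marker HES5, the microglia marker AIF1 and the erythroid marker HBB were also sought but had no single matching entry. Of 5 progenitor markers measured, PAX6, MKI67 and TOP2A were higher in every GZ library than in any CP library, VIM was higher in every CP library, and NES overlapped between tissues. The proliferation marker MKI67 was 4.70 to 5.57 in the 3 GZ libraries and 2.68 to 3.59 in the 3 CP libraries, and VIM was 6.77 to 6.78 in GZ and 6.84 to 7.12 in CP. Of 6 neuron markers, NEFL, NEFM, SYT1 and STMN2 were higher in every CP library, while DCX and MAP2 overlapped, DCX with 7.40 to 8.24 in GZ and 6.82 to 7.59 in CP. The neurofilament gene NEFL was 2.63 to 4.42 in GZ and 6.41 to 6.96 in CP. All 3 vessel markers (PECAM1, CDH5 and FLT1) and the erythroid marker ALAS2 were higher in every CP library, with CDH5 at 1.11 to 2.36 in GZ and 3.19 to 3.97 in CP. ALAS2 was 2.88 to 3.56 in GZ and 3.87 to 4.10 in CP, and the microglia markers PTPRC and CSF1R overlapped. The part of these cells in the chromatin differences was not tested. CTCF itself was 5.89 to 5.99 in GZ and 5.53 to 5.85 in CP.

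The lists differed in length, and this bears on every comparison between tissues. GZ had 30883 CTCF peaks and CP 22044, GZ had 11424 autosomal loops of up to 2 Mb and CP 6974, and GZ had 83028 DNase peaks and CP 71800. The median loop of up to 2 Mb rested on 97 observed contacts in GZ and 84 in CP, and read depth of the CTCF and DNase libraries is unknown. No replicate lists were at hand, so neither tissues nor classes of boundary could be tested against each other; values stand side by side, and intervals cover counting error only. Boundaries are not replicates of a tissue: 6 members shared a CP partner with another member, and 26 had the next GZ boundary 1 bin away.

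Shared boundaries with CTCF were about as strong as shared boundaries without it. Boundary strength is the authors' score, whose lowest value was 0.25 in both lists. Its median was 0.693 in GZ at members (quartiles 0.50 and 0.953, range 0.253 to 7.35) and 0.685 at shared boundaries without CTCF (quartiles 0.470 and 0.976). The 95% intervals of these medians, 0.672 to 0.712 and 0.658 to 0.712, lay almost on top of each other. In CP the partner boundaries had a median of 0.617 at members (0.596 to 0.639) and 0.617 at shared boundaries without CTCF (0.589 to 0.647). The small gap in GZ changed direction under other settings: with the CP boundary in the same bin the medians were 0.717 with CTCF and 0.737 without, and without the weakest boundaries of each list they were 0.805 and 0.820. Strength above 1 was found at 22.1% of members and 24.2% of shared boundaries without CTCF. GZ boundaries with no CP partner had a median strength of 0.383, but lack of a CP partner is part of what sets that class apart, so this difference is not a result.

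Strength in GZ and strength in CP ranked members alike, with exceptions. Across the 1199 members GZ and CP strength had a Spearman correlation of 0.92, which is a description over boundaries that share libraries within each list. Each strength is on its own list's scale, so a higher GZ score need not mean a stronger boundary in GZ. The GZ score was above the CP score at 80.4% of members (78.1% to 82.5%), against 76.0% of shared boundaries without CTCF (73.3% to 78.6%). The difference, GZ minus CP, had a median of 0.091 at members and ran from -0.692 to 0.635. GZ strength was at least 1.5 times CP strength at 4.67% of members, and CP strength at least 1.5 times GZ strength at 0.834%. At shared boundaries without CTCF these shares were 4.59% and 1.70%. The CP boundary lay in the same bin at 64.6% of members, 1 bin lower at 17.8% and 1 bin higher at 17.6%. Members with the boundary in the same bin had a median GZ strength of 0.717, and those offset by a bin 0.665. Shared boundaries without CTCF had the CP boundary in the same bin at 64.9%, with medians of 0.737 there and 0.581 when offset. These traits are thus not particular to members.

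**Figure D1:**
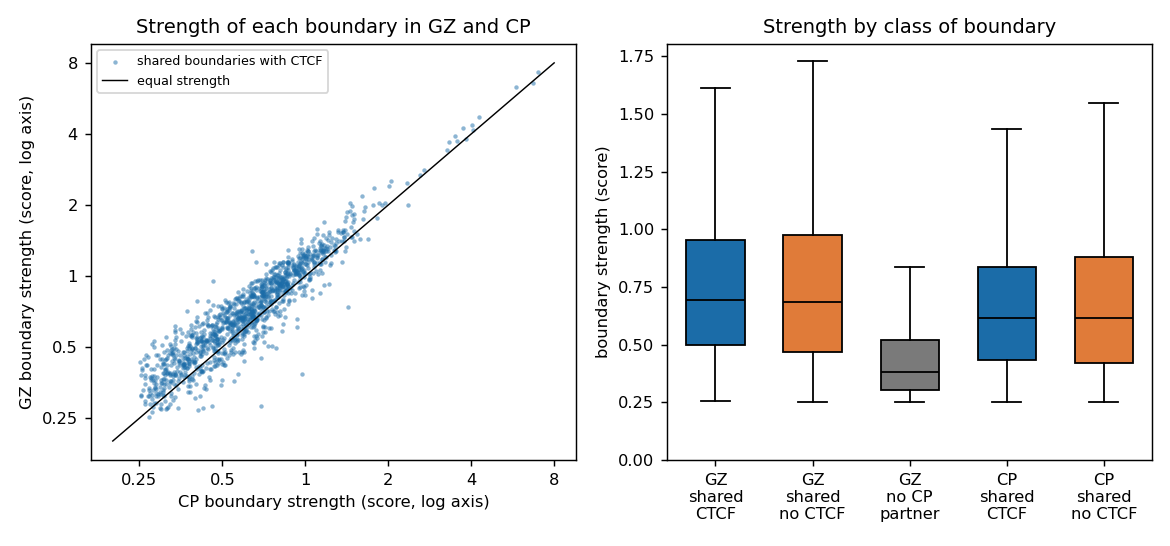
Left, GZ against CP boundary strength (the authors' score, log axes) for each of the 1199 shared boundaries with CTCF, with a line of equal strength. Right, boxes of strength by class (line, median; box, quartiles; whiskers, up to 1.5 times the box height; points beyond are left out). Most points lie slightly above the line, and the boxes with and without CTCF are nearly alike, with GZ medians of 0.693 and 0.685.

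The strongest members stood far above other members in both tissues, but not above the strongest shared boundaries without CTCF. That class reached a strength of 12.23 in GZ and 12.20 in CP. The highest was chr3:127960001-128000000 (rheMac8), with a strength of 7.35 in GZ and 6.97 in CP. It held a single GZ CTCF peak of 16.8-fold enrichment and a single CP peak of 6.62-fold. Next came chr6:47400001-47440000, with 6.59 in GZ and 6.73 in CP, and chr15:45560001-45600000, with 6.35 in GZ and 5.82 in CP. Both held 1 GZ CTCF peak, and chr6:47400001-47440000 had no CP CTCF summit although its CP boundary was in the same bin. All 8 GZ loops and all 5 CP loops anchored there went to higher coordinates. The same 3 members ranked highest in CP. The next in GZ, chr13:91400001-91440000 and chr15:42360001-42400000, had strengths of 4.70 and 4.38 in GZ and 4.28 and 4.02 in CP. Each of these 5 bins held 1 GZ CTCF summit, as did most members.

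The rule required a GZ CTCF summit, and most members held only 1. A single summit was found in 735 members (61.3%), 2 in 311, 3 in 121, 4 in 26 and 5 in 6, with a mean of 1.55. Of all autosomal 40 kb bins 30.8% held a GZ CTCF summit, and 54.5% of shared boundaries did. So did 45.9% of GZ boundaries without a CP partner (41.6% to 50.3%). The share did not peak in the bin of shared boundaries. With the window centred 40 kb below and 20 kb above their midpoint it was 55.1% and 54.9%. At 80 kb below and 80 kb above it was 50.4% and 43.1%. The best GZ peak in a member had a median fold enrichment of 18.1 (quartiles 11.5 and 25.3). The 1854 GZ peaks in member bins had a median fold of 14.8, against 13.8 over the 28084 autosomal GZ peaks elsewhere. Peaks in member bins made up 6.19% of autosomal GZ peaks.

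Neither the number nor the fold of CTCF peaks went with boundary strength. Median GZ strength was 0.692 at members with 1 summit, 0.699 with 2, 0.704 with 3 and 0.638 with 4 or more, and the interval of the last, from 32 members, ran from 0.514 to 0.957. By quartile of best GZ fold, from lowest to highest, median GZ strength was 0.697, 0.685, 0.711 and 0.680. The Spearman correlation of GZ strength with best fold was -0.018 and with the number of summits -0.015 over the 1199 members. The members richest in CTCF showed the same. The bin chr16:51040001-51080000 held 5 GZ summits, with folds of 30.2, 25.5, 18.5, 18.4 and 14.0, and 6 CP summits, and its strength was 0.563 in GZ and 0.566 in CP. The other 2 bins first in number of summits, chr12:63120001-63160000 and chr1:110480001-110520000, had GZ strengths of 0.957 and 0.532 with 5 GZ summits each. The highest single fold, 83.6 at chr1:16120001-16160000, stood at a boundary with a strength of 0.576 in GZ and 0.548 in CP, and its best CP peak had a fold of 8.52. In the bins with the next highest folds, chr3:12320001-12360000 (69.8) and chr3:15560001-15600000 (64.7), GZ strength was 0.382 and 0.974.

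**Figure D2:**
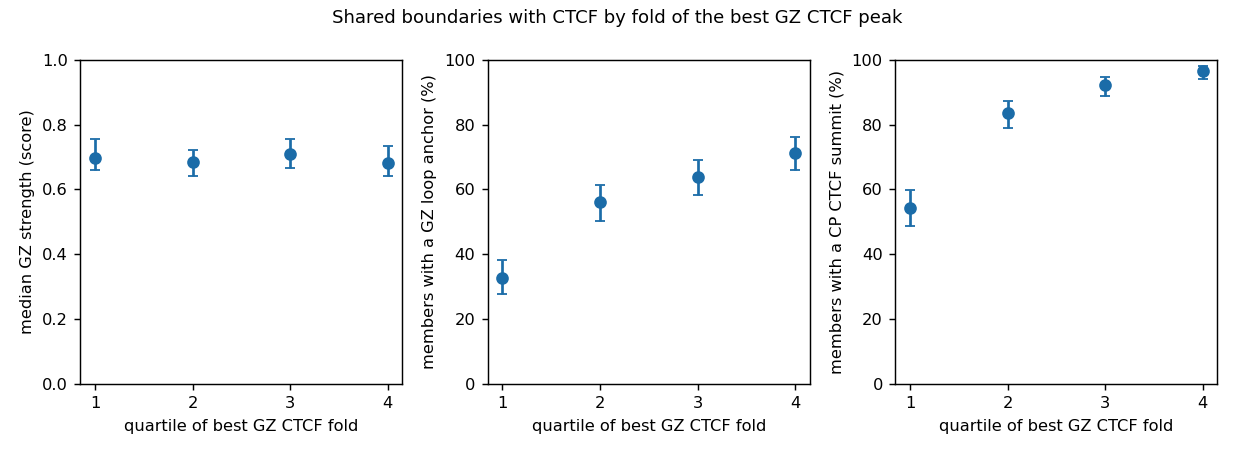
Shared boundaries with CTCF split by the fold enrichment of their best GZ CTCF peak, lowest quartile to highest (299 or 300 members each); points are the median GZ strength, the share with a GZ loop anchor and the share with a CP CTCF summit, with 95% intervals. Strength stays between 0.680 and 0.711, while the share with a loop anchor runs from 32.7% to 71.3% and that with a CP summit from 54.3% to 96.7%.

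The CP CTCF library, which the rule did not use, had peaks at most members. A CP summit lay in the bin at 980 of 1199 members (81.7%, 79.4% to 83.8%), against 3.69% of shared boundaries without a GZ summit. CTCF is shared widely between the tissues away from boundaries too: of the 19191 bins with a GZ summit and no GZ boundary 71.6% held a CP summit (71.0% to 72.3%), and of all autosomal bins 23.5%. Peak by peak, 72.7% of GZ peaks in member bins overlapped a CP peak by at least 1 bp, against 65.0% of autosomal GZ peaks elsewhere. The CP share followed GZ fold, from 54.3% of members in the lowest quartile of best fold to 96.7% in the highest. The 219 members with no CP summit had a median best GZ fold of 10.02, against 19.8 at the 980 members with one. In CP their boundaries had a median strength of 0.641 (0.575 to 0.697), against 0.613 at the members with a CP summit (0.592 to 0.638), and these intervals overlapped. The CP summit was sought in the GZ bin, so these values do not compare CP boundaries with and without CTCF in their own bin. The CP boundary of 424 members lay in a next bin, and 48.6% of those held a CP summit there.

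Where the boundary was offset between tissues, CTCF in the CP bin was about as frequent with as without a summit in the GZ bin. Among the 424 members whose CP boundary lay in a next bin, 80.4% had a CP summit in the GZ bin and 48.6% in the CP bin. A GZ summit lay in the CP boundary bin at 55.4% of them, against 52.8% of the 352 offset shared boundaries without CTCF and 30.8% of all autosomal bins. The rule asks for a GZ summit in the GZ bin and not in the CP bin, so the CP shares in the GZ bin and in the CP bin cannot be set against each other.

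CTCF was also denser outside the bin than farther away. Around members GZ summits numbered 0.214 per boundary and 10 kb at 20 to 60 kb from the midpoint and 0.134 at 150 to 200 kb, a ratio of 1.60, and CP summits 0.173 and 0.096, a ratio of 1.80. Shared boundaries without a summit in the bin also had more CTCF beside it, with a ratio of 1.70 for GZ summits and 1.91 for CP summits. Their nearest GZ summit lay at a median of 39.3 kb, and within 40 kb at 51.5% of them. At boundaries with no CP partner the GZ ratio was 1.13. The 3 members with the farthest nearest summit had it at 19.9 kb, with GZ strengths of 0.459, 0.702 and 0.846. The 3 shared boundaries just outside had it at 20.0 or 20.1 kb, with strengths of 0.415, 0.490 and 3.43.

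**Figure D3:**
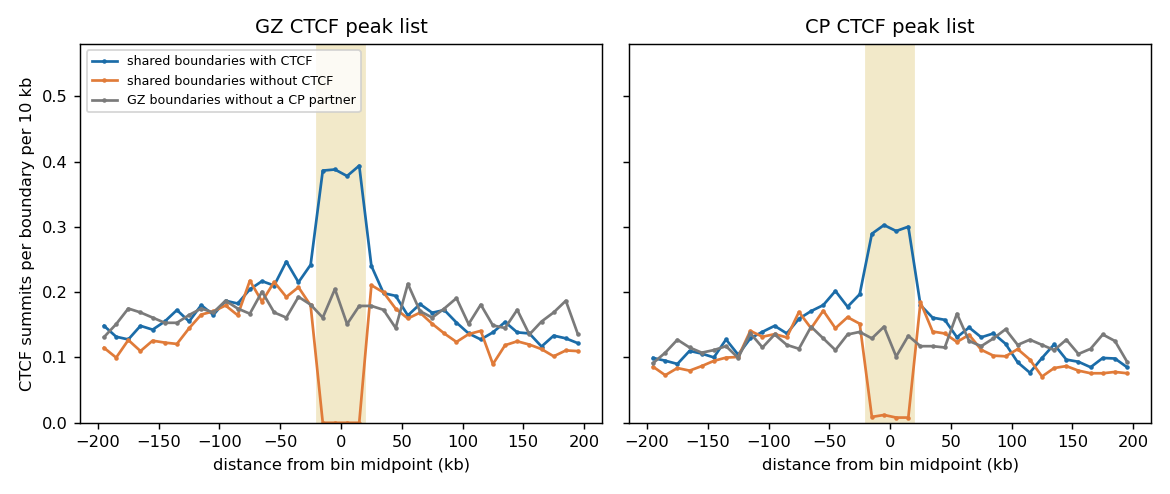
CTCF summits per boundary and 10 kb against distance from the bin midpoint, for GZ peaks (left) and CP peaks (right), at shared boundaries with CTCF, shared boundaries without CTCF and GZ boundaries without a CP partner. The shaded bin is where the rule required or excluded GZ summits; outside it both shared classes exceed their own level at 150 to 200 kb, by 1.60 and 1.70 times at 20 to 60 kb in the GZ list.

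Loop anchors were found at 56.0% of members in GZ and at 44.0% in CP. A loop here is a pair of 10 kb bins with more contacts than their surroundings, up to 2 Mb apart, called by the authors with HiCCUPS. The GZ share, with an interval of 53.1% to 58.7%, stood against 10.3% of shared boundaries without CTCF, 27.6% of GZ boundaries with no CP partner and 18.5% of all autosomal bins. The CP share stood against 6.69% of shared boundaries without CTCF, 20.9% of boundaries with no CP partner and 13.8% of all bins. Bins with a GZ summit and no GZ boundary came close to members, at 49.4% in GZ (48.7% to 50.1%) and 37.1% in CP. Among the 1767 members found with distances from bin edges the GZ share was 42.4%. Their CTCF summit could lie outside the bin, while anchors were still sought within 20 kb of the midpoint, so the shares are not like for like. Loops and boundaries come from the same Hi-C libraries, so they are not independent measures. Of the 671 members with a GZ anchor 75.3% had a CP anchor, and 95.8% of the 527 with a CP anchor had a GZ anchor. The matching shares of other CTCF bins and of all bins were not computed, so this sharing cannot be called a trait of members. The far ends of the loops were not compared.

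Members with a loop mostly had loops in 1 direction, 583 of 671 in GZ and 465 of 527 in CP. GZ loops went both ways from 7.34% of members (88 members), against 0.699% of shared boundaries without CTCF, 6.86% of other CTCF bins and 2.39% of all autosomal bins. These shares depend on the 20 kb window. With anchors up to 40 kb from the midpoint, 21.6% of members and 7.49% of shared boundaries without CTCF had GZ loops both ways. At that distance 74.1% of members had a GZ anchor, 37.9% only for loops going up and 14.7% only for loops going down. In CP they went both ways from 5.17% of members and 1.19% of all autosomal bins. Of the 88 members with GZ loops on both sides, 52 also had CP loops on both sides. At these 88 members the mean anchor of loops going up lay at a higher position than that of loops going down in 70, at the same position in 16 and at a lower one in 2. The median separation was 10 kb, the width of a loop bin. The order of anchors at other both-sided bins was not computed, so it cannot be called a trait of members. Both-sided members were not strong: their median GZ strength was 0.575 (0.540 to 0.618), against 0.685 at members with loops on 1 side and 0.735 at members with none.

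More CTCF went with more loops. The share with a GZ anchor was 49.5% at members with 1 summit, 66.2% with 2, 65.3% with 3 and 68.8% with 4 or more. The share with loops on both sides was 2.86%, 12.9%, 16.5% and 21.9% in the same order. By quartile of best fold the share with an anchor was 32.7%, 56.0%, 63.9% and 71.3%. The 2 members with the most GZ loops, chr14:76240001-76280000 and chr8:58400001-58440000, each anchored 5 loops going down and 4 going up and held 3 GZ summits. Their GZ strengths were both 0.561, below the median of members. In CP they anchored 5 loops each.

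**Figure D4:**
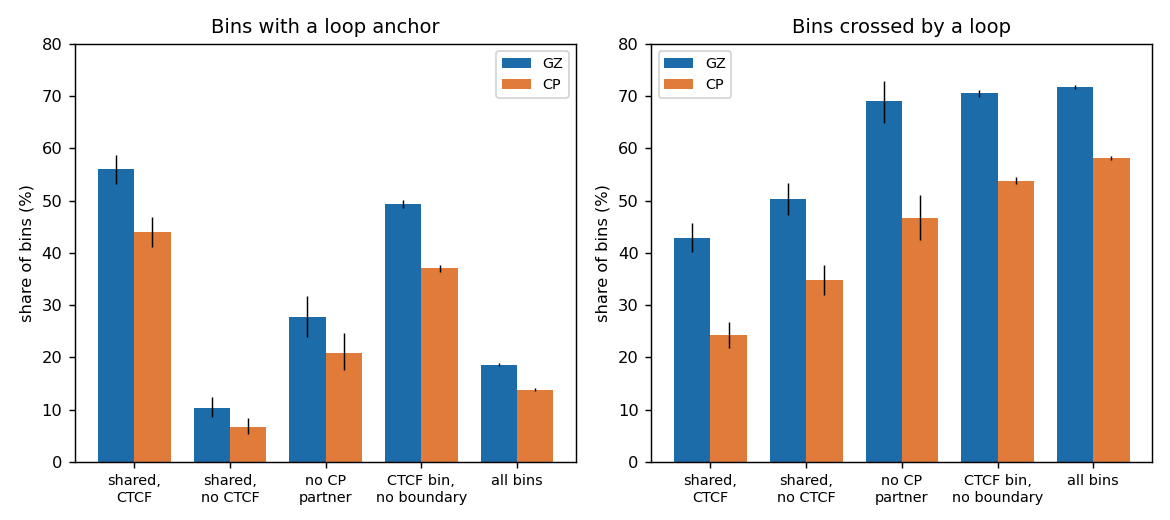
Share of 40 kb bins with a loop anchor (left) and share crossed by a loop with an anchor on each side (right), in GZ and CP, for the 3 classes of boundary, CTCF bins without a GZ boundary and all autosomal bins; bars are shares and lines 95% Wilson intervals. Members had the most anchors (56.0% in GZ) and the smallest share crossed (42.9% in GZ).

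Fewer loops passed over members than over other bins. A GZ loop crossed 42.9% of members (40.1% to 45.7%), 50.3% of shared boundaries without CTCF, 69.0% of boundaries without a CP partner, 70.6% of other CTCF bins and 71.8% of all bins. In CP the shares were 24.2%, 34.7%, 46.7%, 53.9% and 58.2% in the same order. The mean number of crossing GZ loops was 0.773 at members and 1.96 at other CTCF bins. Weak members were crossed more: the mean was 1.22, 0.913, 0.639 and 0.320 from the lowest to the highest quartile of GZ strength. A boundary is defined by depleted crossing contacts, so few crossing loops are partly a restatement of the rule.

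The loops at members were not placed evenly about the bin. In GZ 35.2% of members had only loops going up and 13.4% only loops going down, and in CP 28.4% and 10.4%. Other CTCF bins were close to even, with 20.6% and 21.9% in GZ, and of all autosomal bins 8.07% had only loops going up and 8.07% only loops going down (6.36% and 6.23% in CP). The profiles of anchors showed where the direction changed. Anchors of GZ loops going down outnumbered those going up at 25 kb below the midpoint (0.118 against 0.061 per member and 10 kb) and were outnumbered at 15 kb below it (0.121 against 0.173). The switch fell near the lower edge of the bin. Anchors of loops going down were most frequent near 55 kb below the midpoint (0.153) and those of loops going up at 15 kb above it (0.261). When windows were moved along all 2201 shared boundaries, 19.9% had a GZ loop going down and 19.7% one going up with the window centred 20 kb below the midpoint. At the midpoint itself the shares were 13.4% and 26.0%. The CP list gave 14.4% and 14.9% at 20 kb below the midpoint of its own 2486 autosomal boundaries, so the offset was found in both lists. Crossing loops were also fewest there, with a mean of 0.884 in GZ against 0.921 at the midpoint. With windows centred on the lower edge, an alternative chosen after these values were seen, 1186 boundaries met the rule, of which 24.7% had only loops going up and 23.7% only loops going down. The cause of the offset was not tested. Coordinates are those of the deposited bins, and if the bins stood too high by 20 kb, each position, each share counted in the bin and the 20 kb limit would move with them.

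**Figure D5:**
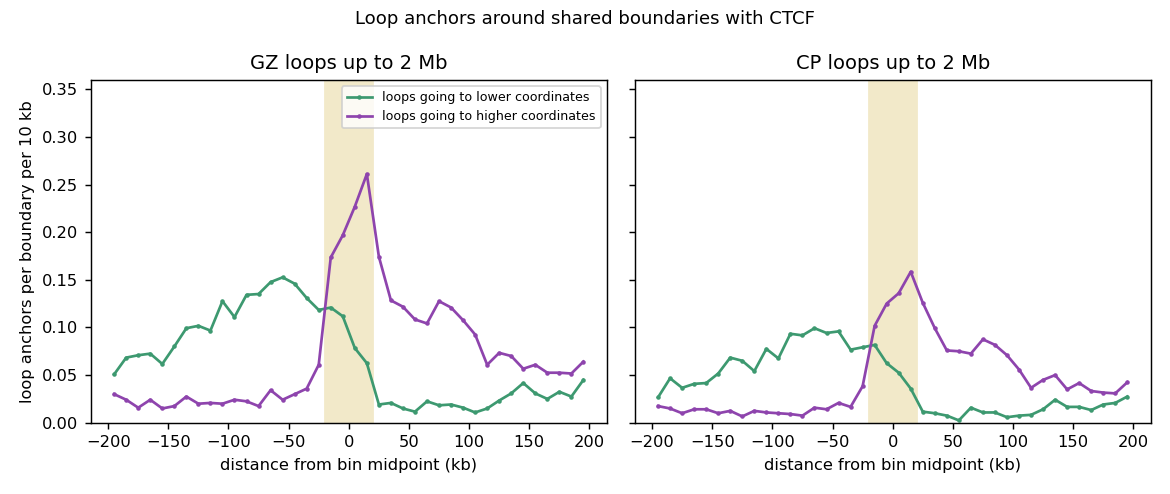
Loop anchors per member and 10 kb against distance from the bin midpoint (shaded, the bin), for GZ loops (left) and CP loops (right) of up to 2 Mb, by the direction in which the loop runs. In both tissues the lines cross close to the lower edge of the bin; in GZ the values are 0.118 going down and 0.061 going up at 25 kb below the midpoint.

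Open chromatin at members was that of CTCF bins in general. GZ DNase peaks lay in 94.6% of members (93.1% to 95.7%), 46.8% of shared boundaries without CTCF, 92.6% of other CTCF bins and 61.3% of all bins. CP DNase peaks lay in 89.7%, 47.4%, 87.2% and 54.7% of these sets. Members had a median of 2 peaks in each tissue, with means of 2.22 in GZ and 2.03 in CP. Leaving aside DNase peaks that overlapped a CTCF peak, 61.2% of members still held a GZ DNase peak, against 46.8% of shared boundaries without CTCF, 63.0% of other CTCF bins and 52.1% of all bins. Of GZ CTCF peaks in member bins 73.9% overlapped a DNase peak, against 68.3% of autosomal GZ peaks elsewhere. The mean number of GZ DNase peaks was 1.75 at members with 1 CTCF summit, 2.64 with 2, 3.45 with 3 and 4.41 with 4 or more. It did not follow strength, at 2.28, 2.22, 2.20 and 2.19 from the lowest to the highest quartile of GZ strength.

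Domains beside members had a median size of 800 kb in GZ (760 to 840 kb), taken as the distance to the next boundary midpoint of any class. Their quartiles were 520 and 1320 kb, and the median was 880 kb beside the CP partners, whose list is shorter. Beside shared boundaries without CTCF the medians were 880 kb in GZ and 960 kb in CP. The smaller of the 2 domains at a member had a median of 560 kb and the larger one of 1200 kb. Strong members bordered larger domains, both taken from the same boundary list: the median was 640, 720, 880 and 1200 kb from the lowest to the highest quartile of GZ strength. Size did not follow CTCF fold in this way, with 840, 820, 760 and 800 kb by quartile of best fold. By number of GZ summits the median fell, from 840 kb with 1 to 800 kb with 2 and 760 kb with 3. It was 660 kb at the 32 members with 4 or more. The largest domain beside a member spanned 4960 kb, between chr6:161520001-161560000 and chr6:166480001-166520000. Both of these members had their CP boundary 1 bin higher, but CP had a further boundary between them, so that its domains were 4240 kb on the upper side of the first and 720 kb on the lower side of the other. The third, chr18:25920001-25960000, bordered a domain of 4880 kb in GZ and 4840 kb in CP and had 7 DNase peaks in each tissue but no loop anchor.

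Few domains had a loop from end to end, and those with a member at both ends had it most often. Of the GZ domains, 534 had members at both ends, 1310 at 1 end and 840 at neither. Among domains of up to 2 Mb a GZ loop with an anchor in each end bin joined 22 of 501 with members at both ends (4.39%, 2.92% to 6.56%), 23 of 1211 with 1 (1.90%) and 2 of 769 with none (0.260%). In CP the counts at the same domains were 19, 13 and 1. With anchors up to 40 kb from the end midpoints the GZ shares were 15.8%, 8.26% and 2.99%. With anchors within 20 kb of points 20 kb below the end midpoints they were 4.19%, 2.31% and 0.780%, a smaller contrast. Members were chosen for CTCF in the end bin, and pairs of other CTCF bins were not compared. The 39 GZ loops that joined a pair of members had a median ratio of observed to expected contacts of 3.39. It was 3.27 for the 1399 loops with 1 anchor at a member and 2.92 for the other 9986. In the same order the median span was 750, 470 and 390 kb, and the median of observed contacts 65, 91 and 97. The ratios were not compared at equal span or contacts.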

How the data were processed

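The series holds 18 samples in 10 groups, and groups and replicate numbers are from sample titles; 2 input samples were not used here. Boundary strengths are deposited scores on 40 kb bins of rheMac8, and no header names the column. Loops were called at 10 kb resolution by HiCCUPS, per the labels; the lists give observed counts of contacts, an expected signal and an FDR, a kind of q-value that was not used, per the file headers. The narrowPeak lists of CTCF hold a fold enrichment ratio and a −log10 q value as deposited, and their peak names contain the word merge; use of the inputs is not stated. DNase peaks, with a median width of 146 bp in GZ, are from HOMER, with a score and fold per the file headers. RNA values are log2 FPKM normalized with cqn by the authors, per the labels. Tools in the submitters' processing notes, without versions, include MACS2, HOMER, STAR, Bowtie2, HiC-Pro and SAMtools. A note of the series says that contact files were replaced and runs added later; the lists may or may not rest on them, and the insulation caller and window are not stated.

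Bin midpoints were compared with CTCF summits, DNase centres and loop anchor midpoints within 20 kb, and with CP midpoints within 40 kb. Loops spanned up to 2 Mb. Background is all 66852 bins of the 20 autosomes, whose lengths were taken as the largest coordinate in any list, so unmappable bins are included. Shares have 95% Wilson intervals and medians 95% intervals from binomial order statistics; both cover counting error only. Python 3.11.15, numpy 2.4.6, pandas 2.3.3 and scipy 1.17.1 were used, and the counting was checked on made-up lists. Named members are the 5 strongest in GZ, the 3 strongest in CP, and the first 3 by number of summits, by fold, by loop anchors and by domain size, with the 3 nearest on each side of the 20 kb limit. Members, marker genes and rules were chosen with earlier results of these data known. The genome and annotation of this build were not used here, so no sequence is printed and no boundary is assigned to genes. Coordinates are 1-based.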

Additional observations from a re-analysis of the deposited data

How the results depend on the processing

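No paired analysis was possible because no result comes from a test: each tissue has 1 pooled Hi-C list and 1 CTCF and DNase library, so leaving out a library could not be run either. RNA libraries share the names RM01 to RM03 across tissues. By these pairs each of 5 progenitor, 6 neuron and 3 vessel markers kept its own direction in 3 of 3 pairs, and neither microglia marker did. The directions differed within sets. Progenitor markers, NES included, were higher in GZ except VIM, which was higher in CP. Neuron markers were higher in CP except DCX, which was higher in GZ. There were 1767 members with distances from bin edges, and 775 with the CP boundary in the same bin, with a median GZ strength of 0.717. Without the weakest boundaries of each list (the lowest 25% by strength) median strength was 0.805 in GZ and 0.703 in CP and domain size 1160 kb, by construction higher. The share with a CP summit was 87.4% with distances from bin edges and 89.3% with the GZ CTCF list cut to the length of the CP list. With distances from bin edges the CP summit was also sought in the wider window, so that share is not like for like. Loops on both sides were at 5.32% of members with distances from bin edges, 10.4% with loops of any span and 21.6% with anchors up to 40 kb away. With distances from bin edges the window for anchors was not widened. With the 1767 members counted in, 29 of 39 values lay within the interval of the reported one, or within 1.5 times for counts. The windows centred on the lower bin edge were chosen after seeing the data. Bins of 40 kb limit every position.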

Other observations

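Members were found on all 20 autosomes. Their density was highest on chromosome 19, with 42 members or 0.783 per Mb, and lowest on chromosome 5, with 61 members or 0.320 per Mb. On chromosome 19 54.5% of bins held a GZ CTCF summit, and on chromosome 5 21.8%. Members made up 59.2% of the GZ boundaries of chromosome 19 and 38.1% of those of chromosome 5. Median GZ strength of members ran from 0.549 on chromosome 19 to 0.828 on chromosome 18, which has 25 members.

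GZ and CP CTCF fold, each on its own list's scale, were set against each other at members. Over the 980 members with a summit in both lists, best GZ fold and best CP fold had a Spearman correlation of 0.15, given as a description.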
